A study of Mus musculus with 10 samples.

Results

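Accessible chromatin was examined at 8 genes of mast cells and basophils (Gata2, Mitf, Ms4a2, Fcer1a, Cpa3, Hdc, Mcpt8 and Prss34) in lineage-depleted bone marrow of mice, a fraction rich in stem and progenitor cells (HSPCs). The assay was ATAC-seq, in which the Tn5 transposase cuts and tags open chromatin. Peaks of 8 libraries were merged wherever they shared 1 bp, and a merged region was assigned to one of the 8 genes when its midpoint lay in that gene, or when that gene was the nearest protein-coding gene within 100 kb. This gave 55 of 103446 regions, at 7 of the 8 genes, and Fcer1a had none. Mitf held 20 regions, Gata2 11, Hdc 10, Ms4a2 and Cpa3 6 each, and Mcpt8 and Prss34 1 each. The member farthest from its gene lay 92505 bp from Mitf, and no region beyond 100 kb had one of these genes as its nearest.

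The libraries came from 4 genotypes on the C57BL/6 strain, with 2 biological replicates each. The double mutant (DM) was Npm1flox-cA/+;Flt3ITD/+;Mx1-Cre+, Npm1c was Npm1flox-cA/+;Mx1-Cre+, Flt3-ITD was Flt3ITD/+, and WT was wild type. Npm1c is the leukaemia-type frameshift mutation of the nucleolar protein nucleophosmin, and Flt3-ITD is an internal tandem duplication in a cytokine receptor kinase. The Npm1c allele is conditional on Mx1-Cre, a Cre under an interferon-inducible promoter that acts in many tissues. The labels do not say whether Mx1-Cre was induced. No Cre is named for the Flt3-ITD and WT libraries, so the Npm1c allele and Mx1-Cre cannot be told apart. The labels give neither ages nor whether a library is 1 animal or a pool. A p-value over libraries therefore reflects the spread of these samples alone, which may be partly technical.

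Mast cells and basophils are granulocytes of allergic and anti-parasite responses that arise from bone marrow progenitors. GATA2 is a zinc finger factor needed for stem cells and for the mast cell and basophil lineages, and MITF is a basic helix-loop-helix factor whose loss in mice depletes mast cells. Both cell types carry the high-affinity IgE receptor, whose alpha chain (Fcer1a) binds IgE and whose beta chain (Ms4a2) amplifies its signal. Their granules hold histamine, made by histidine decarboxylase (Hdc), and proteases: carboxypeptidase A3 (Cpa3) of mast cells, and MCPT8 and PRSS34, which in mice are mostly basophil proteases.

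The promoter windows of 4 of these genes are shown because their peaks, or the lack of them, carry the results given further on. Each window runs from 250 bases before to 50 after a RefSeq start site on GRCm38.p6, the assembly named mm10 in the files' labels. Capitals mark matches, on either strand, to GATAA (the core of GATA sites, TTATC on the other strand) or TGTGGTT (a RUNX-type sequence, AACCACA on the other strand).
Ms4a2 (chr19:11623670-11623969, minus strand): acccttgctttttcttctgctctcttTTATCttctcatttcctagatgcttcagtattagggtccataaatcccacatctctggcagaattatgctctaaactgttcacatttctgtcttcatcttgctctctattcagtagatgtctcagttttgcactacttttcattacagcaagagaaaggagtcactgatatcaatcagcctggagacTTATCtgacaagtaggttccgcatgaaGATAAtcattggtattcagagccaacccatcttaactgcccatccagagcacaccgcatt
Cpa3 (chr3:20242132-20242431, minus strand): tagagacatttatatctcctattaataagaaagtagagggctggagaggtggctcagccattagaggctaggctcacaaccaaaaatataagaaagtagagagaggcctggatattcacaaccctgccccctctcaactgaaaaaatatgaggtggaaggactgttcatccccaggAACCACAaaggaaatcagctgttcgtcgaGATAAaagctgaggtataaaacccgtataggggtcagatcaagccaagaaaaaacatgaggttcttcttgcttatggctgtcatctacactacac
Hdc (chr2:126618629-126618928, minus strand): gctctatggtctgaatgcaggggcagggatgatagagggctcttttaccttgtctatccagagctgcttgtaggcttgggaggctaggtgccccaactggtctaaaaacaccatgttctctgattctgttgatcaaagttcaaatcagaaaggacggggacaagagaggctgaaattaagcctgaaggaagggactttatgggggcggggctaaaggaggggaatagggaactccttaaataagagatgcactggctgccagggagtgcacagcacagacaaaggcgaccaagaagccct
Mcpt8 (chr14:56085148-56085447, minus strand): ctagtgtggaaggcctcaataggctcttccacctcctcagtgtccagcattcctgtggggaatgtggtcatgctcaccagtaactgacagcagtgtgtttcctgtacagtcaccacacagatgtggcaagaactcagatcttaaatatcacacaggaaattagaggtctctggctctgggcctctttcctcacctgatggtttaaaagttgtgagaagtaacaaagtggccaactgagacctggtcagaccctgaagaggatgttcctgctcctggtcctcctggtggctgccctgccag
The Ms4a2 window held 3 GATAA matches, starting 224, 37 and 10 bases before the start site. The Cpa3 window held 1, starting 45 bases before it, and 1 TGTGGTT match 74 bases before it. The Hdc and Mcpt8 windows held no match to these 2 motifs, nor to the E-box CATGTG, the ETS-type sequence GGAAGT, the AP-1 sequence TGACTCA or the STAT-type sequence TTCNNNGAA. Of the 11 windows of the 8 genes, 6 held GATAA, 3 TGTGGTT and 2 CATGTG, against 25.4%, 5.29% and 14.2% of 32619 windows of all genes. The ETS-type, AP-1 and STAT-type sequences were in 0 of the 11, against 23.9%, 5.22% and 8.34% of all windows. A match of letters in a window is a description and does not show a bound site.

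Peak lists held between 43825 and 80916 peaks, with the shortest in Flt3-ITD replicate 1 and the longest in WT replicate 1. They covered between 24.2 and 50.2 Mb of the chromosomes used. The files hold positions only, so a peak is present or absent and has a width but no height, and the read depth behind each list is unknown. Libraries of the same genotype shared between 0.722 and 0.805 of the regions called in either, and libraries of different genotypes between 0.410 and 0.700. Over the 55 member regions these ranges overlapped, at 0.596 to 0.792 within and up to 0.765 between genotypes. In bulk cells, fewer cells of a type and less accessible chromatin per cell cannot be told apart.

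**Figure D1:**
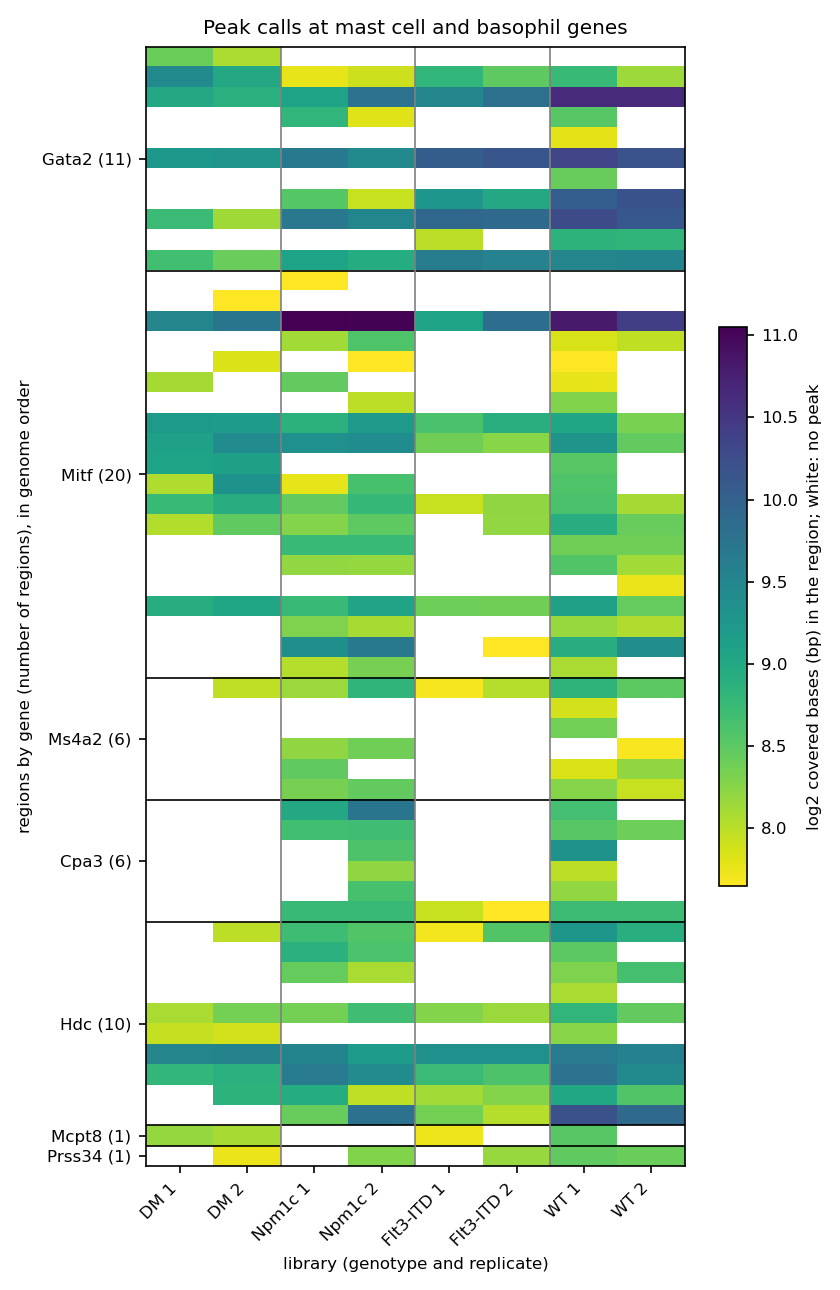
Peak calls at the 55 regions (rows, by gene and genome position) in the 8 libraries (columns). Colour gives the log2 of the covered bases in a region and white means no peak: Cpa3 is empty in both DM libraries, and WT replicate 1 has peaks in 50 regions.

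Fewer of the 55 regions were called in libraries with the Flt3-ITD allele. Called were 20 and 25 of the 55 regions in DM, with 37 and 40 for Npm1c, 21 and 22 for Flt3-ITD, and 50 and 33 for WT. Shares of all regions called were 50.4% and 58.0% in DM and 57.0% and 63.1% in Npm1c. They were 38.7% and 46.0% in Flt3-ITD, and 75.4% and 58.2% in WT. By member counts all 4 libraries with the allele lay below all 4 without it. Over all regions DM replicate 2 lay above Npm1c replicate 1. Neither DM library had a call at 29 of 55 regions (38.6% of all regions share this), and no library with the allele had one at 24 of 55 (29.9% of all regions). Member regions per 1000 regions called in a library were 0.383 and 0.417 in DM, with 0.628 and 0.613 for Npm1c, 0.524 and 0.462 for Flt3-ITD, and 0.641 and 0.549 for WT. On this scale too the 2 groups of 4 did not overlap, with DM below the other 3 genotypes. A call in 1 library only was found at 8 regions, 5 of them in WT replicate 1, the longest list.

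Regions open in every library were 13 of 55, close to the 25.3% of all regions with this pattern. They were 5 at Gata2, 5 at Mitf and 3 at Hdc. None lay at Ms4a2, Cpa3, Mcpt8 or Prss34. Those genes hold few regions, 6 each at Ms4a2 and Cpa3 and 1 each at Mcpt8 and Prss34. The split by gene is a description and was not tested.

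A second pattern was a peak in both Npm1c and both WT libraries and in no library with the Flt3-ITD allele. It was found at 7 of 55 regions (12.7%), and at 8.38% of all regions. Mitf had 4 of them (chr6:97808573-97808956, chr6:97877049-97877496, chr6:97887906-97888286 and chr6:98003208-98003533, all inside the gene). Ms4a2 had 1 upstream of its start (chr19:11625293-11625646), Cpa3 1 beyond its 3′ end (chr3:20198931-20199343) and Hdc 1 inside the gene (chr2:126597850-126598274). By a two-sided Fisher exact test each has p = 0.0286, the smallest that 4 libraries against 4 can give, and an adjusted p of 0.320 over all regions (Benjamini-Hochberg), so none passes. Peaks at these 7 regions were between 230 and 433 bp wide. The median peak of the lists was 418 and 417 bp wide in Npm1c, and 421 and 419 bp in WT. With every list reduced to its 43794 widest peaks, 1 of 39 members had the pattern (2.56%, against 3.89% of all regions). Without WT replicate 2, 11 of the members had it, and the share of all regions was not computed for that setting. At an unadjusted p under 0.05, 8.94% of all regions differed by the Flt3-ITD allele, 0.566% being open only with it. For the Npm1c allele it was 0.36% of regions, 0.156% open only with it and 0.204% only without it, and 0 members.

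Another pattern, missing in both DM libraries and called in the other 6, was found at 3 of 55 regions (5.45%), and at 2.78% of all. These were an intragenic region of Gata2 (chr6:88196698-88197891), a region 1885 bp upstream of Cpa3 (chr3:20243861-20244327) and the region at the Hdc start site (chr2:126618489-126619667). Without DM replicate 2, 6 regions had it, and the share of all regions was not computed for that setting. In the opposite direction, 1 region was called in both DM libraries and in no other, at 5.13% of all regions with this pattern. It lay 41610 bp upstream of Gata2 (chr6:88152111-88152451), with 341 and 268 bp covered in DM.

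Gata2 is 13142 bp long on chromosome 6 and has 2 start sites in the promoter table. The windows of both were under peaks in all 8 libraries, so calls alone show no difference there, and the widths carry the pattern. At the first start site (chr6:88193273-88194572) peaks covered 603 and 618 bp in DM, 819 and 688 bp in Npm1c, 1054 and 1125 bp in Flt3-ITD, and 1300 and 1161 bp in WT. At the second (chr6:88197947-88199234) they covered 426 and 279 bp in DM, 826 and 720 bp in Npm1c, 962 and 939 bp in Flt3-ITD, and 1236 and 1113 bp in WT. The genotypes kept the same order at both start sites, DM lowest and WT highest, and no 2 genotypes overlapped. These widths are not scaled to the covered length of a library. Among all regions called in all 4 libraries of a comparison with WT, 56.1% were narrower in DM, 32.8% in Npm1c and 68.8% in Flt3-ITD.

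Distal elements that control Gata2 in mouse blood cells are known by their distance from the first start site. The position 9.5 kb downstream, an enhancer in an intron that stem cells need, lay in a region called in all 8 libraries (chr6:88202972-88203777). It was covered over 410 and 342 bp in DM, 541 and 494 bp in Npm1c, 781 and 746 bp in Flt3-ITD, and 725 and 732 bp in WT. Here Flt3-ITD lay slightly above WT, while both genotypes with the Npm1c allele lay below. The position 3.9 kb upstream was in the region chr6:88189339-88190968, with 511 and 473 bp in DM, 540 and 866 bp in Npm1c, 727 and 890 bp in Flt3-ITD, and 1600 and 1581 bp in WT. All 3 mutants were narrower than WT at this region, with a ratio of means of 0.309 for DM, 0.442 for Npm1c and 0.508 for Flt3-ITD. Shares of all regions narrower than in WT were 56.1%, 32.8% and 68.8% in the same order.

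The region holding the position 1.8 kb upstream (chr6:88191639-88192212) was called in both Npm1c libraries and in WT replicate 1 only, and the position 2.8 kb upstream lay 123 bp outside any region. The intragenic region missing in DM (chr6:88196698-88197891) was covered over 373 and 243 bp in Npm1c, 615 and 510 bp in Flt3-ITD, and 1053 and 1168 bp in WT. The position 77 kb upstream, an enhancer active in myeloid progenitors, fell in a region whose nearest gene is Rpn1 (chr6:88116006-88117568), so it is not a member. It was called in all 8 libraries and covered 936 and 760 bp in DM, 1179 and 1103 bp in Npm1c, 1092 and 1181 bp in Flt3-ITD, and 1563 and 1319 bp in WT. By unscaled widths DM was lowest there and WT highest, as at the start sites. The shares of all regions narrower than in WT, given with the start sites, apply here too.

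**Figure D2:**
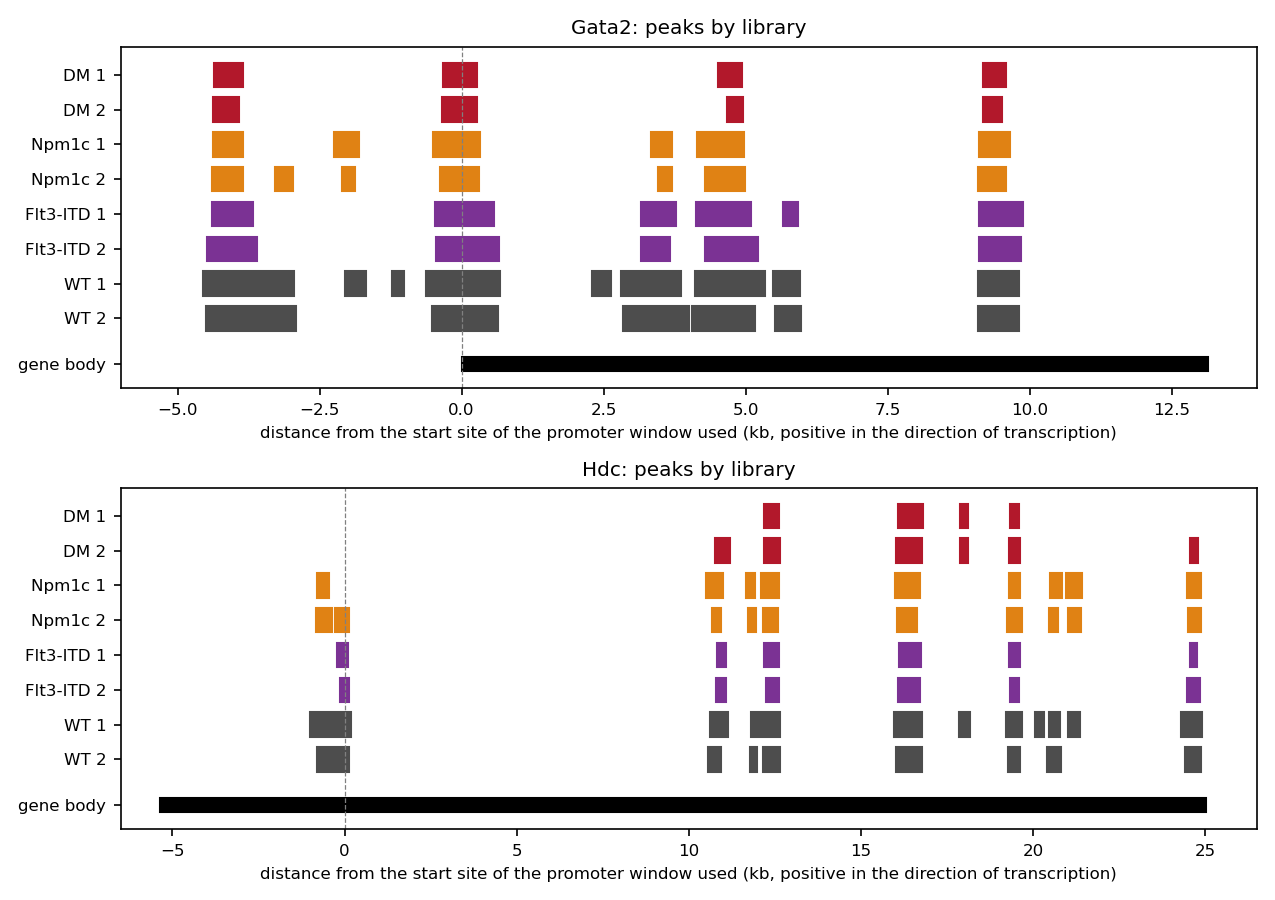
Peaks by library along Gata2 (top) and Hdc (bottom), by distance in kb from the start site (dashed line). At Gata2 the DM peaks are the narrowest at both start sites and at Hdc neither DM library has a peak at the start site.

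Widths within a comparison were compared for regions called in all 4 of its libraries. In Npm1c against WT, 6 of 6 such Gata2 regions were narrower in both Npm1c libraries than in either WT library, where 32.8% of 46966 regions were. In DM against WT it was 4 of 5, against a background of 56.1% of 32357 regions. The exception was the region 27720 bp upstream (chr6:88165829-88166513), which covered 685 and 512 bp in DM, 219 and 240 bp in Npm1c, 447 and 359 bp in Flt3-ITD, and 434 and 283 bp in WT. It was thus widest in DM and narrowest in Npm1c. In Flt3-ITD against WT 4 of 6 Gata2 regions were narrower, near the 68.8% of all regions. In DM against Flt3-ITD 4 of 5 were, where 16.4% of 32956 regions were narrower. In DM against Npm1c 4 of 5 were, where 46.7% of 31851 regions were narrower.

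Counting only libraries whose peaks cover 50% of a region leaves 3 narrower Gata2 regions in Npm1c and 0 in DM, since that setting drops the narrow calls themselves. At Mitf the widths differed by comparison. In Flt3-ITD against WT 3 of 5 Mitf regions were narrower and 0 wider. In Npm1c against WT, 4 of the 11 Mitf regions called in all 4 libraries were wider in Npm1c and 0 narrower, where 24% of all regions were wider. The region at the first Mitf start site (chr6:97805719-97807842) covered 724 and 848 bp in DM, 2124 and 2098 bp in Npm1c, 537 and 901 bp in Flt3-ITD, and 1794 and 1367 bp in WT. It was widest in Npm1c, and the DM and Flt3-ITD widths overlapped. In DM against Flt3-ITD 7 of 13 members called in all 4 libraries were wider in DM, 4 of them at Mitf and 2 at Hdc (48.7% of all regions were wider). In DM against Npm1c 1 of 15 members was wider (30% of all regions were). In Flt3-ITD against WT 15 of 19 members were narrower (78.9%, against 68.8% of all regions), including 6 of 6 at Hdc, and 1 was wider (2.27% of all regions).

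**Figure D3:**
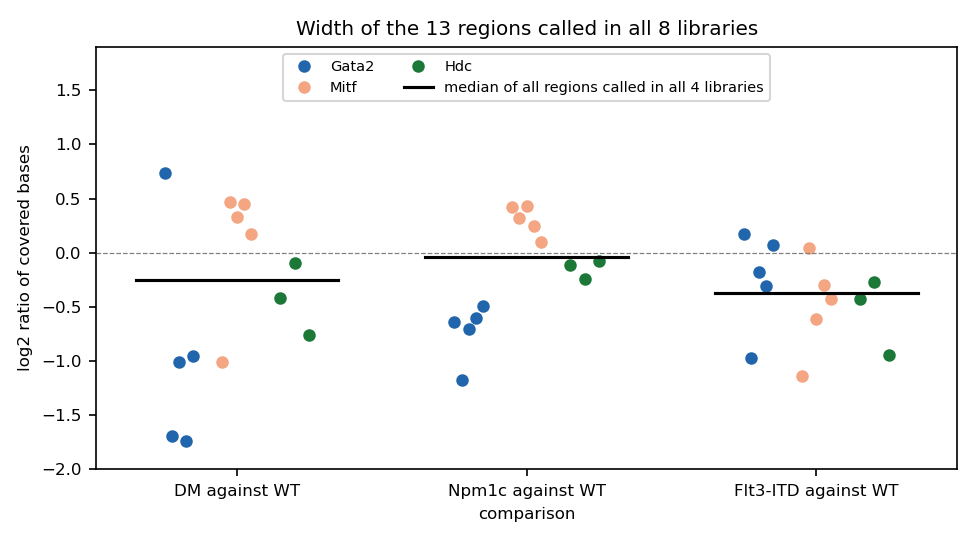
Log2 ratio of mean covered bases, mutant over WT, for the 13 regions called in all 8 libraries; black lines are the medians of all regions called in all 4 libraries of a comparison (-0.25, -0.04 and -0.37). Gata2 points lie below the line for Npm1c in 5 of 5 regions, and for DM in 4 of 5.

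Summed over its regions and scaled to the covered length of the library, Gata2 had 99.2 and 73.5 bp per Mb in DM, with 95.2 and 80.5 for Npm1c, 199.9 and 153.6 for Flt3-ITD, and 154.3 and 163.1 for WT. The 4 libraries with the Npm1c allele, at 87.1 ± 12.1 bp per Mb, lay below the 4 without it, at 168 ± 21.9 (SD, n = 4 each). The ratio was 0.519 and the two-sided exact permutation p over 70 relabellings 0.0286, the smallest possible (adjusted p = 0.244 over 16617 genes with a region). It does not pass the adjustment, and 7.59% of genes were lower and 4.1% higher with this allele at that unadjusted p. As a count of called regions the ratio was 0.867 (exact permutation test, adjusted p = 1.0), and with calls at 50% of a region covered it was 0.327 (exact permutation test, adjusted p = 0.283). Between libraries with and without the Flt3-ITD allele Gata2 averaged 132 and 123 bp per Mb (exact permutation p = 0.857, adjusted p = 0.930).

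Mitf spans 214359 bp on chromosome 6 and its regions behaved otherwise. It had 9 and 10 called regions in DM, with 15 and 15 for Npm1c, 5 and 7 for Flt3-ITD, and 17 and 12 for WT. Scaled covered bases were 137 and 151 bp per Mb in DM, with 185 and 187 for Npm1c, 76.3 and 94.4 for Flt3-ITD, and 156 and 126 for WT. Flt3-ITD was lowest and Npm1c highest, with DM and WT overlapping. Libraries with the Npm1c allele averaged 165 ± 25.04 and those without it 113 ± 35.3 bp per Mb (SD, n = 4 each, exact permutation p = 0.0857, adjusted p = 0.421). For the Flt3-ITD allele the means were 115 ± 34.99 with it and 164 ± 28.8 without (SD, n = 4 each, exact permutation p = 0.114, adjusted p = 0.231). With lists of equal length, Mitf had 6 and 8 called regions in DM and 8 and 10 in Npm1c. It then had 5 and 6 in Flt3-ITD and 6 and 5 in WT, which overlapped. The ratio for the Flt3-ITD allele was 0.841 with equal lists (exact permutation test, adjusted p = 0.643) and 0.700 with full lists. For the Npm1c allele it was 1.71 with equal and 1.46 with full lists.

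Of the 3 Mitf start sites in the promoter table, the first was under a peak in all 8 libraries, the second in WT replicate 2 only and the third in none. Further Mitf regions differed by genotype. A pair of neighbours inside the gene stood out in DM: chr6:97855500-97856085 covered 541 and 557 bp in DM and 368 bp in WT replicate 1, and was not called elsewhere. Next to it, chr6:97856255-97856885 covered 264 and 631 bp in DM, 218 and 399 bp in Npm1c and 383 bp in WT replicate 1, with no call in Flt3-ITD. Both thus count as gained in DM against Flt3-ITD. Downstream of the gene, chr6:98105230-98106048 was missing in both DM libraries, and it covered 653 and 819 bp in Npm1c, 200 bp in Flt3-ITD replicate 2, and 488 and 660 bp in WT.

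Ms4a2, the IgE receptor beta chain on chromosome 19, had 0 and 1 called regions in DM, with 4 and 3 for Npm1c, 1 and 1 for Flt3-ITD, and 5 and 4 for WT. Scaled covered bases were 0 and 7.38 bp per Mb in DM, with 31.9 and 26.4 for Npm1c, 8.51 and 8.71 for Flt3-ITD, and 31.0 and 27.9 for WT. With the Flt3-ITD allele the mean was 6.15 ± 4.14 and without it 29.3 ± 2.58 bp per Mb (SD, n = 4 each), a ratio of 0.210 with no overlap. The exact permutation p was 0.0286, the smallest possible, and the adjusted p 0.0878, the lowest that any of the 16617 genes reached. At that unadjusted p 15.7% of genes were lower with the allele and 16.8% higher. With lists of equal length little of the difference in calls was left: Ms4a2 then had 0 and 0 called regions in DM, with 1 and 2 for Npm1c, 1 and 1 for Flt3-ITD, and 1 and 1 for WT, and a ratio of 0.326.

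The promoter window of Ms4a2 printed above, with its 3 GATAA matches, was under no peak in any library. Its nearest region upstream, chr19:11625293-11625646, covered 324 and 354 bp in Npm1c and 307 and 245 bp in WT and was not called in DM or Flt3-ITD. The remaining call with the Flt3-ITD allele was chr19:11611465-11611931, beyond the 3′ end, with 250 bp in DM replicate 2, 285 and 451 bp in Npm1c, 206 and 259 bp in Flt3-ITD, and 455 and 363 bp in WT. Fcer1a, the alpha chain gene (chr1:173221269-173227232), had no region of its own. The closest peak, 3570 bp away in Npm1c replicate 1, lay nearer to Olfr1404, and the Fcer1a promoter window was under no peak in any of the 8 libraries. By the nearest-gene rule the beta chain gene was thus assigned calls in 7 libraries and the alpha chain gene none. The region inside Ms4a2 was called in 3 libraries, and the region called in 7 lay 3819 bp from the gene.

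Cpa3, on chromosome 3, was the member gene with no peak in either DM library at any of its 6 regions, which were called in 3 and 6 cases for Npm1c, 1 and 1 for Flt3-ITD, and 6 and 2 for WT. Scaled covered bases were 0 and 0 bp per Mb in DM, with 34.2 and 64.1 for Npm1c, 10.1 and 6.72 for Flt3-ITD, and 47.4 and 19.01 for WT. The mean was 4.21 ± 5.06 with the Flt3-ITD allele and 41.2 ± 19.2 bp per Mb without it (SD, n = 4 each, ratio 0.102, exact permutation p = 0.0286, adjusted p = 0.0878). Leaving out Flt3-ITD replicate 1 gave a ratio of 0.0544, equal lists one of 0.0608, and leaving out either DM library one of 0.136. The groups did not overlap, and the result misses the adjusted threshold, as it does for every gene. At the same unadjusted p, 15.7% of 16617 genes were lower with the allele and 16.8% higher. With all lists reduced to 43794 peaks, Cpa3 had 0 and 0 called regions in DM, with 3 and 5 for Npm1c, 1 and 0 for Flt3-ITD, and 3 and 2 for WT.

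The Cpa3 promoter window was under a peak in Npm1c replicate 2, over 300 bp, and in WT replicate 1, over 273 bp, and in no other library. The region 1885 bp upstream of the gene was the most widely shared, with 433 and 430 bp in Npm1c, 245 and 200 bp in Flt3-ITD, and 419 and 419 bp in WT. Its Flt3-ITD peaks were about as narrow as any peak in these lists, whose minimum width is 200 bp. The region 44231 bp downstream of the start (chr3:20197527-20198374) covered 512 and 848 bp in Npm1c and 407 bp in WT replicate 1.

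Hdc, on chromosome 2, had 4 and 6 called regions in DM, with 8 and 8 for Npm1c, 6 and 6 for Flt3-ITD, and 10 and 7 for WT. The region at its start site was covered over 346 and 875 bp in Npm1c, 329 and 259 bp in Flt3-ITD, and 1179 and 939 bp in WT, and was not called in DM. The promoter window itself was under a peak in 5 libraries, since the Npm1c replicate 1 peak lay upstream of it. The start site region therefore differed between DM and the other genotypes, while 3 regions further inside the gene were open in all 8 libraries.

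The widest of those 3, chr2:126606021-126607006, covered 443 and 474 bp in DM, 793 and 681 bp in Npm1c, 424 and 386 bp in Flt3-ITD, and 864 and 695 bp in WT. The region chr2:126601890-126602727 varied least relative to its width, with 722 and 738 bp in DM, 731 and 588 bp in Npm1c, 647 and 646 bp in Flt3-ITD, and 810 and 750 bp in WT. One region, chr2:126600526-126600828, was called in DM over 247 and 235 bp and in WT replicate 1 over 303 bp. Scaled covered bases of Hdc averaged 74.1 ± 14.2 with the Flt3-ITD allele and 101 ± 9.88 bp per Mb without it (SD, n = 4 each, ratio 0.737, exact permutation p = 0.0571, adjusted p = 0.140). With the Npm1c allele they averaged 79.5 and without it 95.1 bp per Mb (exact permutation p = 0.200, adjusted p = 0.605). With lists of equal length, Hdc had 2 and 4 called regions in DM, with 8 and 6 for Npm1c, 6 and 6 for Flt3-ITD, and 6 and 7 for WT.

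The basophil protease genes had a single region each. That of Mcpt8 (chr14:56085089-56085507) overlapped its start site and covered 291 and 272 bp in DM, 213 bp in Flt3-ITD replicate 1 and 370 bp in WT replicate 1. It was not called in either Npm1c library, so it counts as gained in DM against Npm1c. The start site regions of Cpa3 and Hdc had no peak in DM. That of Cpa3 also had none in Flt3-ITD, in Npm1c replicate 1 or in WT replicate 2. That of Prss34 (chr17:25288821-25289178), 9395 bp upstream of the gene, covered 215 bp in DM replicate 2, 313 bp in Npm1c replicate 2, 288 bp in Flt3-ITD replicate 2, and 356 and 344 bp in WT. The replicates of each mutant differed at Prss34, and its promoter window was under no peak. Neither gene passed the test for either allele (lowest exact permutation p = 0.143, adjusted p = 0.263, for Mcpt8 and the Flt3-ITD allele).

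**Figure D4:**
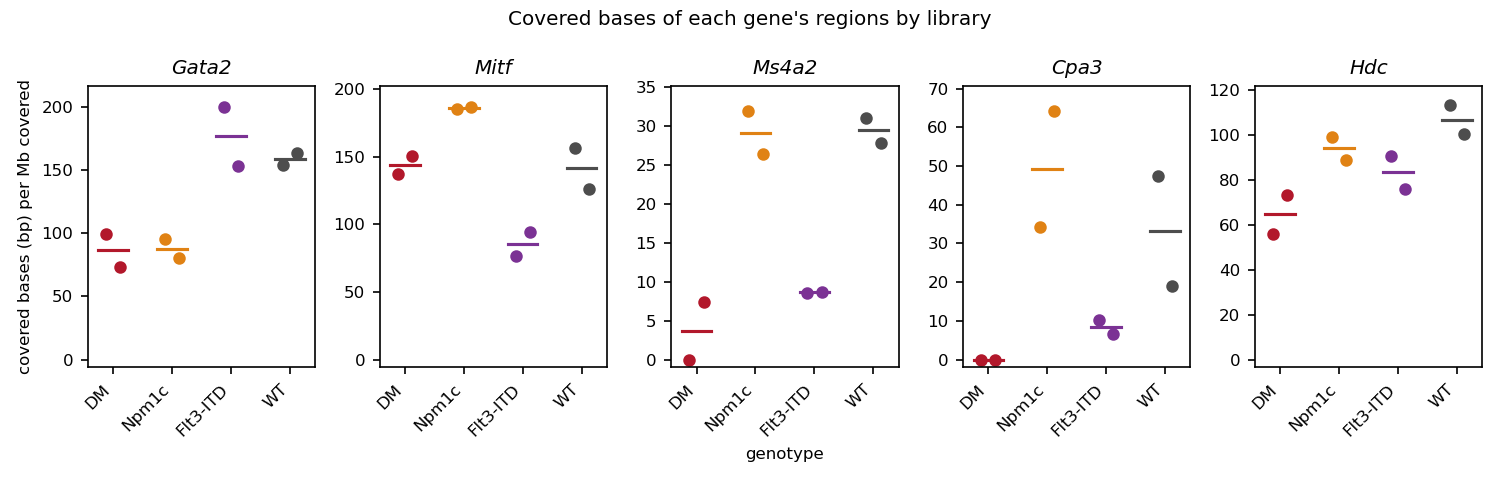
Covered bases per Mb covered by each library's peaks at 5 genes; points are libraries and lines are means of 2. Gata2 is low in DM and Npm1c, Ms4a2 and Cpa3 are low in DM and Flt3-ITD, and Hdc is lowest in DM.

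Counted as gains and losses, a region was gained when called in both libraries of a genotype and in neither of the other, and lost in the opposite case. In DM against WT 1 of 55 regions was gained (1.82%, against 6.93% of all regions) and 13 were lost (23.6%, against 20.9%). The loss share was near that of all regions. Losses were spread over 5 at Mitf and 2 each at Gata2, Ms4a2, Cpa3 and Hdc. Without WT replicate 1, 5 regions were gained, and without WT replicate 2, 26 were lost. Leaving out a library loosens the rule for every region, and the share of all regions was not computed for it.

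In Npm1c against WT 0 regions were gained (2.71% of all regions were) and 1 was lost (6.26% of all), at Gata2 (chr6:88199380-88199858), which covered 255 bp in Flt3-ITD replicate 1 and 460 and 451 bp in WT. Without WT replicate 2, 9 were lost, and without WT replicate 1, 5 were gained (share of all regions not computed for either). In Flt3-ITD against WT 0 were gained (0.852% of all) and 8 lost (14.5%, against 16.2% of all), 4 at Mitf, 2 at Ms4a2 and 1 each at Cpa3 and Hdc. Here too the loss share was near the background. If WT replicate 2 was left out, 26 regions were lost, with no share of all regions computed for that setting. With equal lists 1 of 39 was lost (2.56%, against 6.49% of all regions), a share below the background. No region can be tested with 2 libraries against 2, since the smallest exact two-sided p is 0.3333.

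The comparison of DM with Npm1c asks what Flt3-ITD adds to Npm1c. Of the 55 regions 16 were lost (29.1%, against 19.3% of all regions), 6 at Mitf, 3 at Cpa3, 3 at Hdc and 2 each at Gata2 and Ms4a2. Gained were 4 (7.27%, against 12.6% of all), 1 each at Gata2, Mitf, Hdc and Mcpt8. With lists of equal length 8 of 39 member regions were lost (20.5%, against 18.2% of all), so the distance to the background was smaller. In DM against Flt3-ITD 3 were lost (5.45%, against 3.44% of all), the 3 regions missing in DM alone, and 4 gained (7.27%, against 10.6%). The comparisons share libraries and are not independent of each other.

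**Figure D5:**
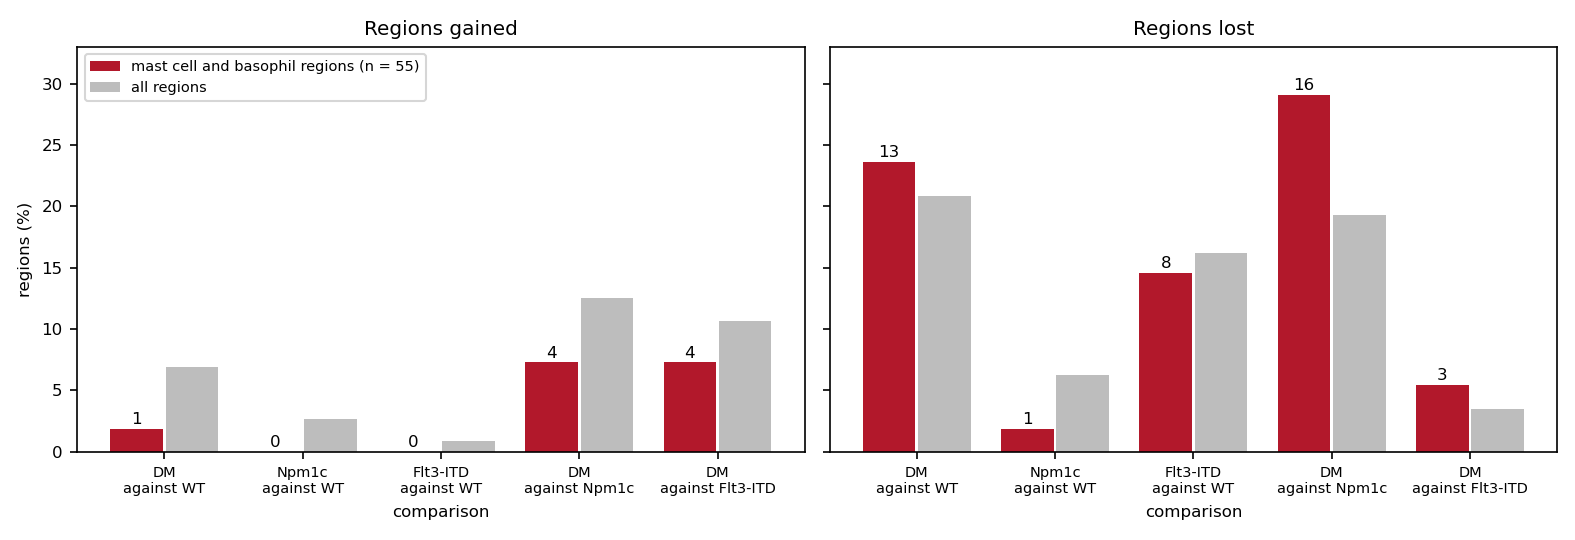
Percent of the 55 regions (red, with counts) and of all regions (grey) gained or lost in each comparison. Lost shares of the 55 regions lie near the grey bars for DM and Flt3-ITD against WT and above them for DM against Npm1c, where 16 regions were lost.

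Other genes of the mast cell and basophil programme were counted as lists. Of 12 protease and granule genes 7 had regions, 35 in all, and 11 of these were lost in DM against WT (31.4%, against 20.9% of all regions), 4 at the chymase gene Cma1, 3 at the proteoglycan gene Srgn and 1 each at Gzmb and Mcpt4. Cma1 had 0 and 0 called regions in DM, with 1 and 1 for Npm1c, 1 and 1 for Flt3-ITD, and 4 and 4 for WT. It was low in each mutant, and 3 of its 4 regions were also lost in Npm1c against WT, where Ms4a2 and Cpa3 lost 0. Tpsb2, Tpsg1, Mcpt1 and Mcpt2 had no region, and Tpsab1 is listed as a pseudogene in the gene table and was not assigned.

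Of the 8 genes of IgE receptor signalling, with 93 regions, 18 were lost (19.4%) and 2 gained (2.15%) in DM against WT, with 6 losses at the adaptor gene Gab2 and 4 at the kinase gene Syk. Of 95 regions of receptors and surface genes 20 were lost (21.1%), 6 at Kit, the stem cell factor receptor on which mast cells depend, and 5 at Enpp3, a basophil surface marker, and 6 were gained (6.32%). Of all regions 20.9% were lost and 6.93% gained, so both loss shares were near the background, and the gain share of the IgE receptor signalling genes was below it. Enpp3 had 1 and 2 called regions in DM, with 7 and 7 for Npm1c, 3 and 4 for Flt3-ITD, and 7 and 7 for WT. Cd200r3, a receptor of mast cells and basophils, went the other way, with 12 and 13 in DM, with 6 and 7 for Npm1c, 8 and 9 for Flt3-ITD, and 12 and 5 for WT.

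In the same comparison of DM with WT, 20.9% of all regions were lost and 6.93% gained. Lipid mediator enzymes lost 6 of 46 regions (13.04%) and gained 1 (2.17%), both below these shares. Cytokine genes lost 5 of 20 (25%), 3 of them at Il13, and gained 0. Transcription factors of the lineage lost 54 of 202 (26.7%) and gained 9 (4.46%). Ikzf2 had 15 of these losses, Runx1 12 and Lmo2 10, while Cebpa gained 3, and Tfeb gained 3 and lost 3. Ikzf2 had 4 and 5 called regions in DM, with 26 and 29 for Npm1c, 7 and 7 for Flt3-ITD, and 24 and 20 for WT. By these counts, which are not scaled to list length, all 4 libraries with the Flt3-ITD allele lay below all 4 without it. The share of all genes with this pattern of counts was not computed. By scaled covered bases, 15.7% of 16617 genes were lower with this allele at an unadjusted exact permutation p under 0.05. Ikzf2 is named for having the most losses of its list.

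Marker lists of other cell types were counted beside the share of all regions called in each library, which was 50.4% and 58.0% in DM, with 57.0% and 63.1% for Npm1c, 38.7% and 46.0% for Flt3-ITD, and 75.4% and 58.2% for WT. Progenitor markers (Cd34, Kit, Flt3, Meis1 and Spi1) each had regions, with 45 and 55 of 100 called in DM, with 63 and 73 for Npm1c, 38 and 42 for Flt3-ITD, and 69 and 51 for WT. These counts lay above the shares of all regions in both Npm1c libraries and below them in the other genotypes. Cd34 had 9 and 10 of 23 regions called in DM, with 19 and 23 for Npm1c, 7 and 8 for Flt3-ITD, and 14 and 11 for WT. Kit was instead highest in WT, with 13 and 10 of 17 regions, against 8 and 9 in Npm1c. T cell markers had 10 and 12 of 15 regions called in DM, with 0 and 2 for Npm1c, 1 and 1 for Flt3-ITD, and 5 and 2 for WT, and monocyte markers 18 and 21 of 25 in DM, with 9 and 11 for Npm1c, 12 and 13 for Flt3-ITD, and 15 and 9 for WT. The DM counts of both lists lay above the other genotypes and above the DM shares of all regions. Genes within the lists differed. Of the T cell calls in DM, 8 and 7 were at Bcl11b, 1 and 2 at Cd4, 1 and 1 at Cd8a and 0 and 2 at Cd3e. Alone of the monocyte list, Ly6c2 was lower in DM than in the single mutants. It had 1 and 1 calls in DM, with 2 and 2 for Npm1c, 3 and 3 for Flt3-ITD, and 1 and 1 for WT. Eosinophil markers had 13 and 11 of 20 regions called in DM, with 14 and 16 for Npm1c, 4 and 2 for Flt3-ITD, and 16 and 13 for WT, and B cell markers 11 and 22 of 25 in DM, with 7 and 9 for Npm1c, 7 and 7 for Flt3-ITD, and 10 and 5 for WT.

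Neutrophil markers had 14 and 9 of 19 regions called in DM, with 9 and 8 for Npm1c, 6 and 7 for Flt3-ITD, and 11 and 6 for WT. Erythroid markers had 5 and 4 of 11 in DM, with 11 and 9 for Npm1c, 5 and 6 for Flt3-ITD, and 9 and 7 for WT. Megakaryocyte markers had 17 and 18 of 33 in DM, with 16 and 18 for Npm1c, 19 and 23 for Flt3-ITD, and 26 and 25 for WT. The defining markers Ly6g, Epx, Cd79a, Cd3g, Hbb-b1 and Hba-a1 had no region in any library. The part of these cell types in the values of the 8 genes was not tested.

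Genes with the most similar pattern were taken as those with the highest Pearson r of covered bases per Mb over the 8 libraries, among 7105 genes with at least 5 regions. The r is a description only, since libraries of a genotype are alike and all are scaled by list length. For Gata2 they were Vcl (r = 0.976), Ube2d2a (0.973) and Ascc2 (0.967), for Mitf Corin (0.985), Glrx (0.980) and Slc4a7 (0.978). For Ms4a2 they were Prkcq (0.986), Gsta4 (0.982) and Bace2 (0.981), for Cpa3 Syne1 (0.983), F3 (0.980) and Jam2 (0.977), and for Hdc St3gal5 (0.964), Prr14l (0.950) and Nfkbia (0.943). Among the members themselves r was 0.883 for Ms4a2 with Hdc and 0.809 for Ms4a2 with Cpa3. Gata2 and Mitf ran in opposite directions, with an r of -0.784.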

How the data were processed

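Per the submitters' processing notes, reads were aligned with Bowtie2 and peaks called with MACS2 on mm10. Versions, thresholds, duplicate removal, Tn5 shifting and the handling of reads with several alignments are not stated there. The number of reads is unknown. The deposited lists, 1 per library and not pooled, hold the chromosome, start and end of each peak and no score. Per the labels, each of the 8 HSPC samples used 100000 cells and 30 minutes of tagmentation. WT neutrophil samples were not analysed here.

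Peaks on chromosomes 1 to 19 and X were merged at 1 shared bp (103446 regions, median width 435 bp) and assigned to 21631 protein-coding genes of RefSeq GRCm38.p6. A region went to a listed gene holding its midpoint, otherwise to the shortest gene holding it, otherwise to the nearest within 100 kb. The gene table has no exons, so exon, intron and UTR are not stated. Coordinates are 1-based. The allele tests were a two-sided Fisher exact test per region and a two-sided exact permutation test per gene, with Benjamini-Hochberg adjustment over all 103446 regions or 16617 genes at 0.05. The Fisher test, the permutation test without blocks and the lost calls were checked on simulated data, and merging and gene assignment on a small example. Nothing in the labels says that a replicate number pairs libraries. Deviations of equal numbers correlated between -0.040 and 0.039, which cannot exclude a shared animal or day. The members and lists were chosen with earlier results of these data known. All 8 genes were named, with regions called in both libraries of a genotype and in neither of another, promoter regions, up to 4 genes per list and 3 similar genes per member with at least 5 regions. Alternatives were lists of equal length, merging over gaps of 200 bp, calls at 50% of a region covered, a 50 kb gene distance, leaving out each library, blocks, unscaled covered bases and call counts. Python 3.11.15, numpy 2.4.6, pandas 2.3.3 and scipy 1.17.1 were used.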

Additional observations from a re-analysis of the deposited data

Results flagged for a closer look

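The covered bases of Ms4a2 in the 4 libraries with the Flt3-ITD allele had 1 value far from the others, 0 bp per Mb in DM replicate 1, beside 7.38 in DM replicate 2 and 8.51 and 8.71 in Flt3-ITD (gap over range 0.847). Those of Mcpt8 in the 4 libraries without that allele had 7.37 bp per Mb in WT replicate 1 and 0 in Npm1c and in WT replicate 2 (gap over range 1). Chance alone marks about 1 in 20 groups of continuous values. That rate does not hold for Mcpt8, whose single region gives a ratio of 1 whenever 1 of 4 libraries has a call.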

How the results depend on the processing

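No member gene passed the adjusted threshold under the 16 alternatives, and no member region under the 14 that apply to regions (adjusted p of Ms4a2 for the Flt3-ITD allele between 0.0696 and 0.154). With the replicate block, over 36 relabellings, the counts were 0, which says nothing of stability, since the smallest p it allows is 0.0556, as for the block on the other allele (lowest adjusted p of a member gene 0.150 by Flt3-ITD and 0.399 by Npm1c).

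With lists of equal length, which left 39 members of 72476 regions, gained members were 1 in DM against Flt3-ITD (2.56%, against 6.81% of all regions), 2 in DM against Npm1c (5.13%, against 16.5%), 2 in DM against WT (5.13%, against 13.6%), 1 in Flt3-ITD against WT (2.56%, against 5.85%) and 3 in Npm1c against WT (7.69%, against 4.72%). Lost members were 8 in DM against Npm1c (20.5%, against 18.2%), 7 in DM against WT (17.9%, against 15.4%) and 1 in Flt3-ITD against WT (2.56%, against 6.49%). With calls at 50% of a region covered, 1 was gained in Npm1c against WT, 14 were lost in Flt3-ITD against WT and 2 in Npm1c against WT. Merging over 200 bp left 0 lost in Npm1c against WT. The cause was not tested. Among these alternatives, shares of all regions were computed only with lists of equal length. Leaving out each library gave 1 to 5 gained in DM against WT and 0 to 5 in Npm1c against WT, and lost counts of 3 to 6 in DM against Flt3-ITD, 13 to 26 in DM against WT, 9 to 26 in Flt3-ITD against WT and 2 to 9 in Npm1c against WT.

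For the Flt3-ITD allele the Cpa3 ratio ranged from 0.0544 to 0.136 over the alternatives, and that of Ms4a2 from 0.137 to 0.326. That of Hdc ranged from 0.456 to 0.796 and that of Mitf from 0.491 to 0.841. Some ratios that were not called changed side. Gata2 with over without the Flt3-ITD allele was 0.855 with calls at 50%, 0.693 unscaled and 0.806 as call counts, and 0.882 to 1.22 leaving out each library. For the Npm1c allele, Cpa3 was 0.9 as call counts and 0.548 to 2.06 leaving out each library, Mcpt8 0.966 unscaled and 0.662 to 1.8, and Ms4a2 0.592 to 1.15. Prss34 was 1.03 for the Flt3-ITD allele with equal lists. Mcpt8 has no ratio for the Flt3-ITD allele without WT replicate 1 or with equal lists, where a denominator is 0. Lists of positions without reads or scores cannot separate a closed region from one under the caller's threshold.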
